A study of Mus musculus with 24 samples.

Results

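Ribosomal protein genes were followed across 24 mouse hearts of 4 genotypes measured on Affymetrix expression arrays. Members were all probe sets (groups of short probes read together as 1 transcript) whose annotation gave exactly 1 gene symbol, of the form Rpl or Rps and a number with an optional final a, x or l, or Rplp0, Rplp1, Rplp2 or Rpsa. The ribosomal S6 kinase genes were left out. The rule found 100 of the 45037 probe sets tested, for 46 genes, 24 of the large subunit (44 probe sets) and 22 of the small subunit (56 probe sets). A single probe set stood for 23 genes and several, at most 6, for the other 23. Rpl3, Rplp1, Rpl10, Rpl10l, Rpl36a, Rpl36al and Rpl32 had no probe set that named them alone and were not measured here, and 110 further probe sets that list a ribosomal protein gene beside other symbols were counted but not named.

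Total RNA came from whole hearts of mice aged 90 days, 6 hearts per genotype. NTG hearts were non-transgenic. The other lines carried a human cDNA under the alpha-myosin heavy chain promoter, which is active in heart muscle cells: AC5 (adenylyl cyclase type 5, an enzyme that makes cyclic AMP), GLY (the beta1-Gly389 form of the beta1-adrenergic receptor) or ARG (its beta1-Arg389 form). Each value was a ratio to the NTG level, given here as log2, so that it holds no level of its own and genes cannot be ranked by abundance. The labels name the replicates as biological but name no founder line and no batch. Of the 4 Adcy5 probe sets, which detect the mouse gene of the same enzyme, 1 (1439829_at) was 0.31 to 0.54 in AC5 hearts. This was above the NTG range of -0.10 to 0.13, with a difference of 0.41 ± 0.09 (SE, limma adjusted p = 0.0813). On 1443080_at, 1447696_x_at and 1455296_at the AC5 differences were 0.14, 0.06 and -0.13, none called, and AC5 overlapped NTG on each. Myh6, also looked at to check the labels (1417729_at and 1448826_at), was not called against NTG in any line.

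A cytosolic ribosome holds 1 copy of nearly every ribosomal protein, the Rpl proteins in the large subunit that joins amino acids and the Rps proteins in the small subunit that reads the mRNA. Most of their mRNAs begin with a C followed by a run of C and T (U in the RNA), the 5′ terminal oligopyrimidine motif, through which mTOR signalling and the protein LARP1 adjust their translation as a group. A few genes have close relatives that are made in only some tissues or states: Rpl3l in striated muscle, Rpl39l in testis and Rps27l, which p53 can induce. Growth of heart muscle cells is accompanied by the making of new ribosomes.

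RefSeq promoter windows (GRCm38.p6, 250 bases before to 50 after the annotated start) matched 40 of the 46 genes. Rps29, Rps20, Rps14, Rps4l, Rpl7 and Rpl8 were not matched. Where a gene had several annotated starts, as 7 members did, only the start farthest upstream was used. A motif or run at another start was not sought. A run of at least 5 C or T that overlapped the stretch from 5 bases before to 10 after the start was sought. It was present in 70% of the 40 windows and in 38.1% of the 27025 gene windows in the same table. Such a run need not cover the start, so that it need not be the 5′ terminal oligopyrimidine motif. The ETS-type motif CCGGAAG, searched on both strands, was in 50% of the members' windows against 9.14% of all, and the Sp1-type motif GGGCGG in 52.5% against 35.9%. The YY1-type motif AAGATGG was in 17.5% against 6.46%, and TATAAA in 12.5% against 14.2%. Shown are 80 bases (60 before to 20 after the start) for 5 of the called genes. Capitals mark the longest such C and T run and any CCGGAAG. Rps27l (chr9:66946026-66946105, plus strand), Rps10 (chr17:27635225-27635304, minus strand), Rps24 (chr14:24490618-24490697, plus strand) and Rpl12 (chr2:32961652-32961731, plus strand) are followed by the muscle gene Rpl3l (chr17:24727766-24727845, plus strand).
Rps27l: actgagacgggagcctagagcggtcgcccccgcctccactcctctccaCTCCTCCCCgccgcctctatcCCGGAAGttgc
Rps10: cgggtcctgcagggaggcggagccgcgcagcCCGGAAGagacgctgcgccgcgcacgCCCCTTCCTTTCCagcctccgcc
Rps24: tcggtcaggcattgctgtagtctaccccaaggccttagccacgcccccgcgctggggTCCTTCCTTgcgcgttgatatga
Rpl12: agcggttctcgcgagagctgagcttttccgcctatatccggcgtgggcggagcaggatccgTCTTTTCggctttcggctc
Rpl3l: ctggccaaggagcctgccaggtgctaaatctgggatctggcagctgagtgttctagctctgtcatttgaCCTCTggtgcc
The run was 13 bases long in Rps10, 9 in Rps27l and Rps24, 7 in Rpl12 and 5 in Rpl3l. In Rps27l it ended before the annotated start, and in Rpl3l it began after it. Of these 5, Rps27l and Rps10 held the ETS-type motif in the printed stretch. Rpl3l held none of the 4 motifs in its full window. Among the called genes not shown, Rps19, Rps3 and Rpl37 had no such run. The run was 5 bases long in Rpl22 and Rpl27, 7 in Rpl39l and 9 in Rps26, and Rps20 was not matched.

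The median ribosomal protein probe set stood slightly above NTG in all 3 transgenic lines. The median log2 difference from NTG was 0.10 in ARG, 0.11 in GLY and 0.08 in AC5, beside 0.0042, 0.03 and -0.0012 over all probe sets. After quantile normalization of the log2 ratios the members' medians were 0.07, 0.06 and 0.09. That step gives every heart the same distribution of ratios over all probe sets. In the values as given, 73 of the 100 members were above 0 in ARG, 82 in GLY and 81 in AC5. Over all probe sets 51.2%, 59.0% and 49.6% were above 0. The 3 comparisons share the 6 NTG hearts, so that they are not independent of each other. As medians by gene, 33 of the 46 genes were above 0 in ARG, 37 in GLY and 37 in AC5.

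Heart by heart, the median over the 100 members was 0.12 ± 0.04 in ARG (SD, n = 6; 0.06 to 0.16), 0.13 ± 0.08 in GLY (0.04 to 0.22), 0.10 ± 0.05 in AC5 (0.03 to 0.17) and 0.02 ± 0.04 in NTG (-0.04 to 0.05). All 6 ARG hearts lay above all NTG hearts, while the lowest GLY and AC5 hearts overlapped the NTG range. GLY split by replicate number: replicates 1 to 3 were 0.16 to 0.22 and replicates 4 to 6 were 0.04 to 0.10. The array median over all probe sets split the same way in GLY, with a mean of 0.05 in the former and -0.01 in the latter. The labels do not say what these replicate numbers stand for, so the values are given below within the first set (replicates 1 to 3) and the second set (replicates 4 to 6). In the first set the members' median difference from NTG was 0.08 in ARG, 0.17 in GLY and 0.10 in AC5, and in the second set it was 0.12, 0.049 and 0.059.

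**Figure D1:**
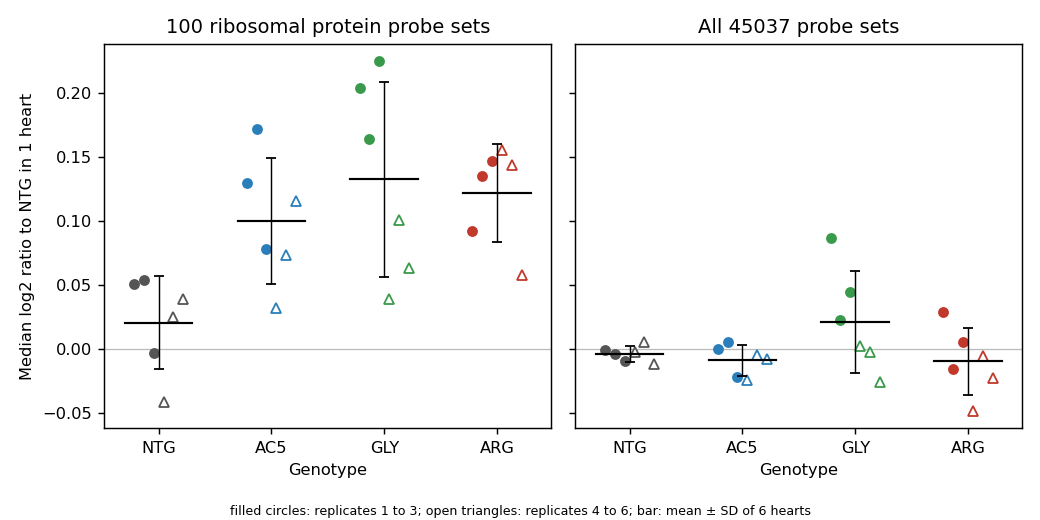
Each point is the median log2 ratio to NTG in 1 heart, over the 100 ribosomal protein probe sets (left) and over all 45037 probe sets (right), by genotype. Filled circles are replicates 1 to 3, open triangles replicates 4 to 6, and bars the mean ± SD of 6 hearts. The members' medians lie between 0.06 and 0.16 in ARG hearts and between -0.04 and 0.05 in NTG hearts, and the GLY hearts of replicates 1 to 3 lie above those of replicates 4 to 6.

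Called differences (adjusted p under 0.05 over all 45037 probe sets, limma) were few. In ARG against NTG, 7 members (of 4 genes) rose and 4 (of 4 genes) fell, 11 of 100 in all, where 9.67% of all probe sets were called (4.04% higher, 5.63% lower). In GLY against NTG, 10 (of 6 genes) rose and 3 (of 3 genes) fell, against 5.08% of all (1.55% higher, 3.53% lower). None was called in AC5 against NTG (0.142% of all), where 15 had an unadjusted p under 0.05 (7.26% of all). The share of members called in ARG was thus near that of all probe sets, and the share called higher in GLY was above it. After quantile normalization 3 members rose and 3 fell in ARG, where 5.33% of all were called, and 2 rose and 1 fell in GLY, where 1.41% were. None was called in AC5, where 0.884% were. Over all probe sets that step thus gave fewer calls in the receptor lines and more in AC5, so a call lost after it is not specific to the members.

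Values that did not overlap between genotypes leaned upwards more than the calls did. In ARG against NTG, 18 members had all 6 hearts above and 2 had all 6 below, where 6.11% of all probe sets did not overlap (2.32% higher, 3.79% lower). In GLY the counts were 10 and 1, where 2.68% of all did not overlap, and in AC5 2 and 1, where 1.22% did not. Of the 18 in ARG, 15 belonged to the small subunit, 13 were among the 40 probe sets marked _x_at (which can match transcripts of several genes) and 5 were marked _a_at. None was among the 31 unmarked _at probe sets, and with 1 probe set per gene 5 of 46 lay wholly above NTG.

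The 2 subunits differed little in their medians. The small subunit stood at 0.13 in ARG, 0.11 in GLY and 0.09 in AC5, and the large subunit at 0.09, 0.11 and 0.07. All 7 calls higher in ARG were on small subunit probe sets, whereas in GLY 7 were on the small and 3 on the large subunit. The medians differed more by kind of probe set. In ARG the 40 probe sets marked _x_at had a median of 0.14 (35 above 0), the 26 marked _a_at, which match several transcripts of 1 gene, 0.14, and the 31 unmarked _at probe sets 0.02. In GLY these medians were 0.14, 0.18 and 0.06, and in AC5 0.08, 0.10 and 0.04. The 110 probe sets with several symbols had medians of 0.05 in ARG, 0.09 in GLY and 0.07 in AC5.

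**Figure D2:**
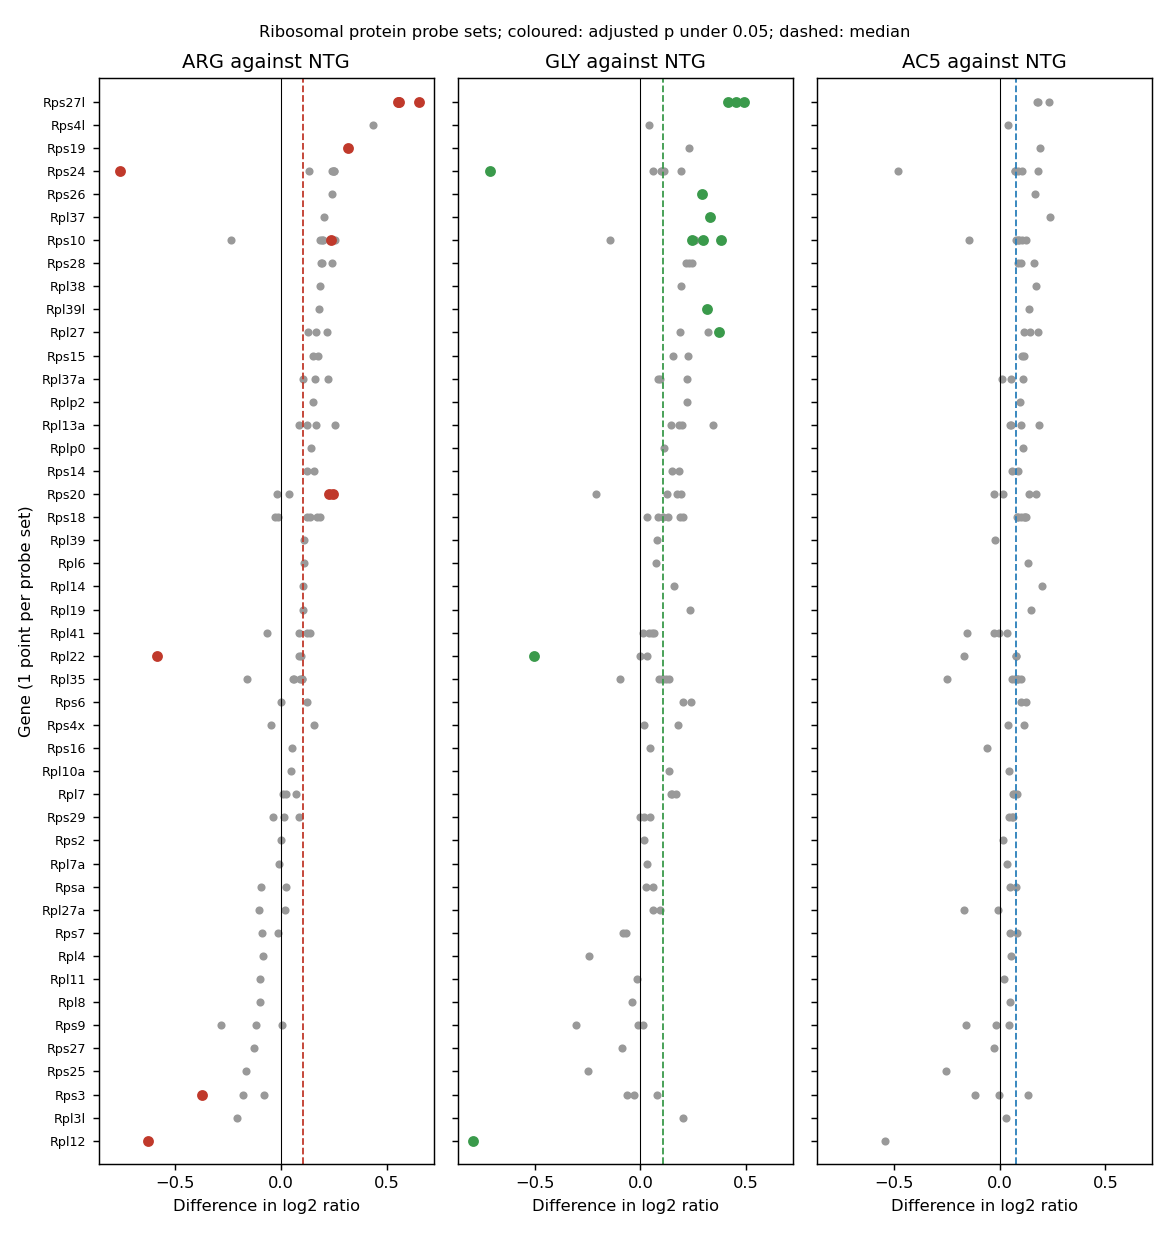
Difference in log2 ratio from NTG for each ribosomal protein probe set, 1 row per gene, in ARG, GLY and AC5. Large coloured points had an adjusted p under 0.05 (11, 13 and 0 of 100), and the dashed lines are the medians (0.10, 0.11 and 0.08). The 3 Rps27l points stand to the right in ARG and GLY, and single points of Rps24, Rpl22 and Rpl12 stand far to the left of the others.

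Rps27l encodes a near copy of the small subunit protein Rps27 and is known as a p53-inducible gene. Its 3 probe sets all rose in ARG and in GLY, and no other gene with several probe sets had all of them called in either line. On 1450925_a_at the log2 ratio ranged from -0.10 to 0.24 in NTG (median 0.02), from -0.04 to 0.62 in AC5 (median 0.29), from 0.43 to 0.77 in GLY (median 0.50) and from 0.41 to 1.18 in ARG (median 0.59). Every GLY and ARG heart was above every NTG heart, and the AC5 hearts spread from the NTG range into that of the receptor lines. The difference from NTG was 0.65 ± 0.11 in ARG (1.57-fold, adjusted p = 0.000208) and 0.49 ± 0.11 in GLY (1.41-fold, adjusted p = 0.00925), with limma.

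The other Rps27l probe sets followed the same order. On 1423254_x_at NTG ranged from -0.07 to 0.15 (median 0.05), AC5 from -0.07 to 0.52 (median 0.24), GLY from 0.37 to 0.58 (median 0.42) and ARG from 0.41 to 0.77 (median 0.63). Again no GLY or ARG heart overlapped NTG, with limma differences of 0.56 ± 0.09 in ARG (adjusted p = 7e-05) and 0.41 ± 0.09 in GLY (adjusted p = 0.0054). On 1435429_x_at the differences were 0.55 ± 0.10 in ARG and 0.45 ± 0.10 in GLY, also without overlap. These calls against NTG held without each single heart, and in the first and second replicate sets the ARG difference on 1450925_a_at was 0.49 and 0.81 and the GLY difference 0.56 and 0.42. Quantile normalization left 1 of the 6 calls out (1423254_x_at in GLY, adjusted p = 0.0502).

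In AC5 the 3 probe sets were 0.18, 0.18 and 0.23 above NTG and were not called. ARG stood above AC5 by 0.38 ± 0.09 on 1423254_x_at, 0.37 ± 0.10 on 1435429_x_at and 0.42 ± 0.11 on 1450925_a_at, all called by limma, though ranges overlapped. The last 2 of these calls were lost without AC5 replicate 3 or 4 or ARG replicate 4 or 5, and all 3 were lost after quantile normalization. GLY against AC5 was not called on any. Rps27 itself (1460699_at), a small subunit protein with a zinc finger, was -0.13 in ARG, -0.09 in GLY and -0.03 in AC5 against NTG, none of them called. Both _x_at probe sets may also match related transcripts.

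**Figure D3:**
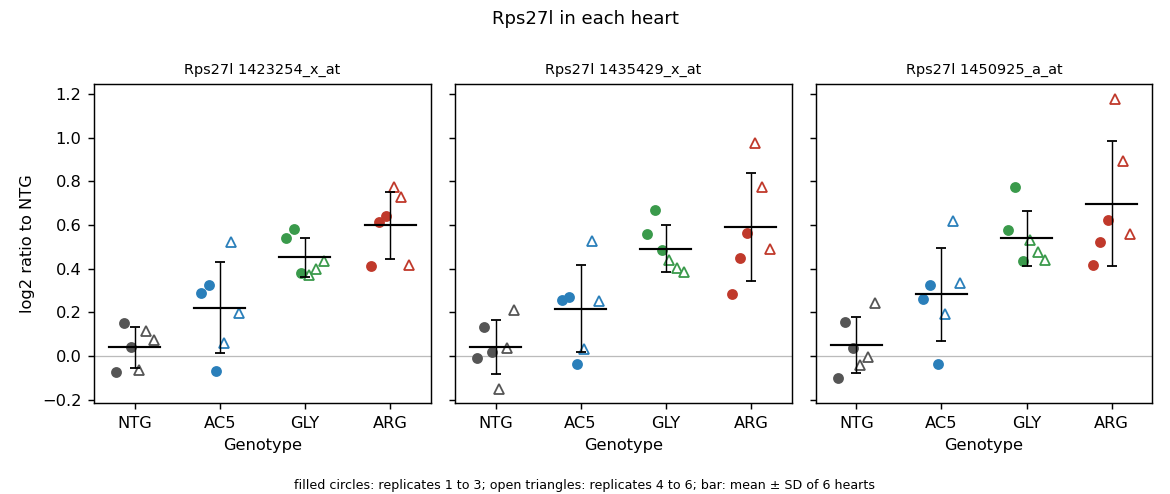
Log2 ratio to NTG of the 3 Rps27l probe sets in each heart, by genotype. Filled circles are replicates 1 to 3, open triangles replicates 4 to 6, and bars the mean ± SD of 6 hearts. On each probe set all GLY and ARG hearts lie above all NTG hearts, and AC5 hearts lie in between and overlap both.

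Other small subunit genes rose by less. Rps19, the gene most often mutated in Diamond-Blackfan anaemia, had a single probe set (1449243_a_at) that ranged from -0.15 to 0.17 in NTG (median -0.03), from 0.10 to 0.35 in AC5 (median 0.19), from 0.09 to 0.33 in GLY (median 0.26) and from 0.23 to 0.43 in ARG (median 0.31). The ARG hearts did not overlap NTG, while the AC5 and GLY hearts did. Rps19 rose by 0.32 ± 0.07 in ARG (1.25-fold, limma adjusted p = 0.00288), a call lost after quantile normalization (adjusted p = 0.0538). The differences of 0.23 in GLY (adjusted p = 0.053) and 0.19 in AC5 (adjusted p = 0.424) were not called.

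Rps10, a protein of the small subunit's head, was read by 6 probe sets, of which 3 rose in GLY and 1 in ARG. On 1434854_a_at the values ranged from -0.08 to 0.13 in NTG (median 0.09), from 0.04 to 0.34 in AC5 (median 0.18), from 0.15 to 0.71 in GLY (median 0.46) and from 0.20 to 0.43 in ARG (median 0.32). GLY and ARG hearts were all above NTG hearts. The difference was 0.38 ± 0.09 in GLY (1.30-fold, limma adjusted p = 0.0127). In GLY it was 0.61 in the first replicate set and 0.15 in the second. The ARG difference of 0.25 on this probe set was not called (adjusted p = 0.0792).

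On 1456497_x_at Rps10 rose by 0.30 ± 0.07 in GLY and by 0.23 ± 0.07 in ARG, the latter call (limma adjusted p = 0.0358) being lost without any 1 of ARG replicates 3, 4 and 5 or NTG replicates 3, 4 and 5. The highest and lowest of its 6 probe sets in ARG differed from NTG by 0.25 and -0.23. Rps20, also of the head of the small subunit, rose in ARG on 2 of its 4 probe sets. These were 1456373_x_at, by 0.23 ± 0.06 (adjusted p = 0.0158), with ARG hearts from 0.17 to 0.36 and NTG hearts from -0.10 to 0.15, and 1456436_x_at, by 0.25 ± 0.07 (adjusted p = 0.0161), where ARG replicate 1 overlapped NTG. Its other probe sets were lower, the lowest at -0.02 in ARG. Both Rps20 calls and the Rps10 calls were absent after quantile normalization.

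Rps26 rose in GLY only just past the threshold, by 0.29 ± 0.09 on 1415876_a_at (adjusted p = 0.0495), and was named after its value was seen. Rps28, a small protein at the mRNA exit, and the S6 kinase substrate Rps6 were not called. The 3 Rps28 probe sets were 0.19 to 0.24 above NTG in ARG and 0.21 to 0.24 in GLY, and were also named after their values were seen. Rps6 was 0.12 and 0.001 in ARG, 0.20 and 0.24 in GLY and 0.12 and 0.10 in AC5. Rpsa, which also serves as a laminin receptor, lay between -0.10 and 0.08 in all 3 lines.

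Among large subunit genes, the 3 rises were in GLY alone as calls. Rpl27 (1453096_x_at) ranged from -0.09 to 0.20 in NTG (median 0.05), from 0.15 to 0.40 in AC5 (median 0.20), from 0.12 to 0.76 in GLY (median 0.42) and from 0.16 to 0.31 in ARG (median 0.29). It rose by 0.37 ± 0.09 in GLY (limma adjusted p = 0.0128), with 0.56 in the first replicate set and 0.18 in the second, and the ARG and AC5 differences of 0.22 and 0.18 were not called. Rpl37, a protein of the large subunit with a zinc finger, rose by 0.33 ± 0.08 in GLY (1438291_x_at, adjusted p = 0.0155). All GLY hearts (0.17 to 0.66) and all AC5 hearts (0.17 to 0.44) were above all NTG hearts (-0.04 to 0.13), and the call in GLY was lost without GLY replicate 3 (adjusted p = 0.0507). After quantile normalization the calls of Rpl27 and Rpl37 were lost (limma adjusted p = 0.0877 and 0.14).

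Rpl39l, the relative of Rpl39 best known from testis, rose by 0.31 ± 0.08 in GLY (1423327_at, limma adjusted p = 0.0249). Its hearts ranged from -0.27 to 0.09 in NTG (median -0.05), from -0.03 to 0.19 in AC5 (median 0.06), from 0.10 to 0.38 in GLY (median 0.28) and from -0.16 to 0.36 in ARG (median 0.09). The GLY hearts did not overlap NTG, but the call was lost without GLY replicate 1 or NTG replicate 1, and after quantile normalization (adjusted p = 0.0953). Rpl39 was 0.11 in ARG, 0.08 in GLY and -0.02 in AC5, with no call.

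The stalk proteins, which bring elongation factors to the ribosome, were not called. Rplp0 was 0.14 above NTG in ARG, 0.11 in GLY and 0.11 in AC5, and Rplp2 was 0.15, 0.22 and 0.10. Rpl13a, often used as a reference gene in PCR assays, had 4 probe sets at 0.09 to 0.25 in ARG, 0.14 to 0.35 in GLY and 0.05 to 0.19 in AC5, without a call. Rps4x was 0.15 and -0.05 in ARG on its 2 probe sets, without a call. The members with the largest SD within genotypes were Rpl12 (1435655_at), Rpl27a (1437729_at) and Rps4l (1452730_at). Rps4l, a transcribed pseudogene in RefSeq, was 0.43 ± 0.18 above NTG in ARG (adjusted p = 0.138).

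The falls in both receptor lines were each carried by 1 probe set. Rps24, a small subunit protein whose mRNA is alternatively spliced at its 3′ end, had 6 probe sets. On 1455195_at the log2 ratio ranged from -0.65 to 0.19 in NTG (median -0.14), from -0.97 to -0.25 in AC5 (median -0.66), from -1.10 to -0.41 in GLY (median -0.88) and from -1.0 to -0.64 in ARG (median -0.90). NTG replicate 4 was the low NTG heart, and through it the NTG range touched those of all 3 lines. The probe set fell in ARG (-0.76 ± 0.13, limma adjusted p = 0.000245) and in GLY (-0.71 ± 0.13, adjusted p = 0.00192). It was -0.48 ± 0.13 in AC5, which was not called (adjusted p = 0.183).

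The other 5 Rps24 probe sets lay on the opposite side of 0, from 0.13 to 0.25 in ARG, from 0.06 to 0.19 in GLY and from 0.07 to 0.18 in AC5, without a call. Within each heart, 1455195_at minus the median of the other 5 was -1.12 ± 0.14 in ARG (SD, n = 6), -0.93 ± 0.36 in GLY, -0.69 ± 0.24 in AC5 and -0.11 ± 0.27 in NTG. All ARG hearts (-1.26 to -0.85) and all GLY hearts (-1.37 to -0.52) were below all NTG hearts (-0.50 to 0.22) in this difference. Which part of the Rps24 transcripts each probe set matches was not determined here. After quantile normalization the fall remained called in ARG (adjusted p = 0.0406) and not in GLY (adjusted p = 0.134).

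Rpl22, an RNA-binding protein at the surface of the large subunit, showed the same arrangement. On 1448398_s_at it ranged from -0.06 to 0.19 in NTG (median -0.02), from -0.20 to -0.09 in AC5 (median -0.15), from -0.77 to -0.23 in GLY (median -0.48) and from -1.06 to -0.29 in ARG (median -0.46). Each transgenic line lay wholly below NTG, and the receptor lines lay wholly below AC5. The fall was -0.59 ± 0.10 in ARG (limma adjusted p = 0.000295) and -0.50 ± 0.10 in GLY (adjusted p = 0.00444), and the ARG value was -0.42 ± 0.10 against AC5 (adjusted p = 0.0145). AC5 against NTG was -0.17 and not called (adjusted p = 0.812).

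The other Rpl22 probe sets, 1416603_at and 1453118_s_at, were 0.08 and 0.09 in ARG and 0.0004 and 0.03 in GLY. The within-heart difference between 1448398_s_at and their median was -0.66 ± 0.32 in ARG, -0.50 ± 0.08 in GLY, -0.23 ± 0.07 in AC5 and 0.02 ± 0.14 in NTG. The ARG difference was -0.82 in the first replicate set and -0.35 in the second. Both Rpl22 falls against NTG held without each single heart and after quantile normalization. The mark _s_at says that the probes match transcripts of more than 1 gene.

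**Figure D4:**
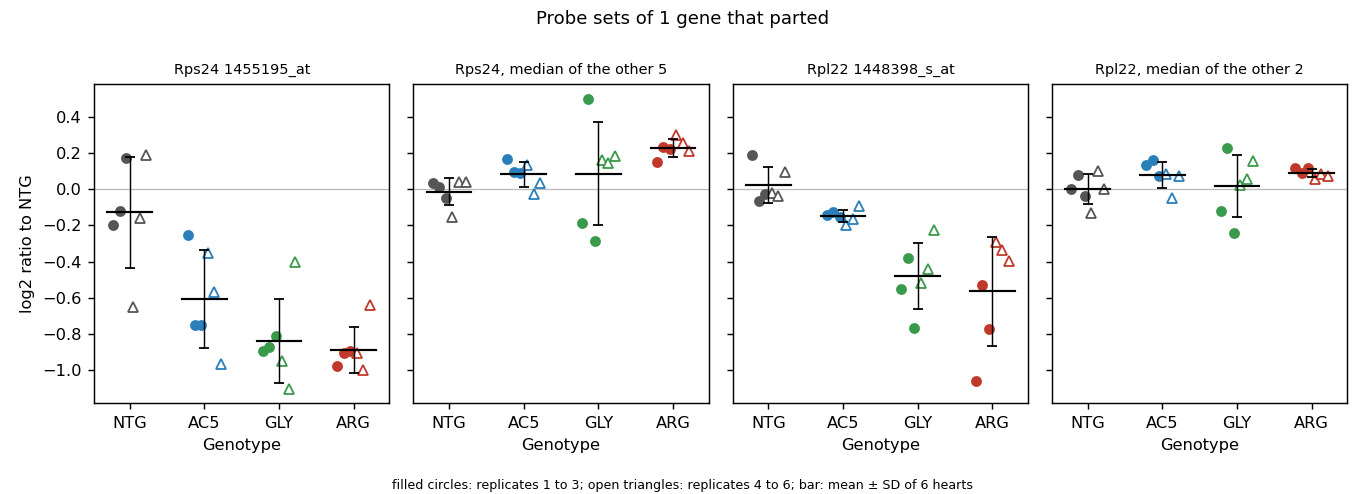
Log2 ratio to NTG in each heart for the Rps24 and Rpl22 probe sets that fell, each beside the median of the other probe sets of the same gene, by genotype. Filled circles are replicates 1 to 3, open triangles replicates 4 to 6, and bars the mean ± SD of 6 hearts. Rps24 1455195_at and Rpl22 1448398_s_at lie between -1.10 and -0.23 in the receptor lines, below the median of the other probe sets of the gene in every GLY and ARG heart.

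Rpl12, at the base of the stalk, had a single probe set (1435655_at), and it varied widely. It ranged from -0.45 to 0.33 in NTG (median -0.06), from -1.26 to -0.01 in AC5 (median -0.62), from -1.36 to -0.36 in GLY (median -0.76) and from -1.04 to -0.32 in ARG (median -0.63), so that every line overlapped NTG. It fell in GLY (-0.79 ± 0.18, limma adjusted p = 0.00906) and in ARG (-0.63 ± 0.18, adjusted p = 0.0217), and was -0.54 in AC5 (adjusted p = 0.33). The ARG call was lost without ARG replicate 3, NTG replicate 3 or NTG replicate 5, and both calls were absent after quantile normalization.

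Rps3, which lines the mRNA entry site of the small subunit, fell in ARG alone as a call. On 1455600_at its ratio ranged from -0.12 to 0.12 in NTG (median 0.09), from -0.18 to -0.01 in AC5 (median -0.05), from -0.24 to 0.30 in GLY (median -0.04) and from -0.61 to -0.12 in ARG (median -0.26). It was -0.37 ± 0.09 in ARG (limma adjusted p = 0.00819) and -0.03 in GLY, and the 2 forms of the receptor were not called apart on it. The ARG difference was -0.55 in the first replicate set and -0.20 in the second. The other 2 Rps3 probe sets were -0.18 and -0.08 in ARG.

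Between the receptor lines the members hardly parted. In ARG against GLY none rose and 1 of 100 fell, where 1.51% of all probe sets were called, 4 members had an unadjusted p under 0.05 (13.5% of all), and no member's hearts were without overlap (0.793% of all). The median difference was -0.03, but it was -0.10 in the first replicate set, 0.072 in the second and 0.0015 with each array's median set to 0. By direction, 0.793% of all probe sets were called higher and 0.713% lower. In ARG against AC5, 3 rose (all Rps27l) and 1 fell (Rpl22), where 4.93% of all were called (2.52% higher, 2.41% lower). There 1 member lay wholly above and 2 wholly below AC5, where 3.07% of all did not overlap. In GLY against AC5 none was called (0.693% of all), 11 had an unadjusted p under 0.05 (11.8% of all), and 1 (Rpl22) did not overlap (0.995% of all).

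The member that parted ARG from GLY was Rpl3l (1449398_at), the striated muscle relative of Rpl3, a protein at the peptidyl transferase centre. Its hearts ranged from -0.16 to 0.23 in NTG (median 0.02), from -0.06 to 0.24 in AC5 (median 0.06), from -0.09 to 0.44 in GLY (median 0.24) and from -0.66 to 0.08 in ARG (median -0.13). The ARG and GLY ranges overlapped, and ARG replicate 4 lay far below the rest. ARG was lower than GLY by a log2 difference of -0.41 ± 0.10 (limma adjusted p = 0.0366). The call was lost in 9 of 24 fits that left out 1 heart (without ARG replicate 2, 4, 5 or 6 or GLY replicate 1, 2, 3, 4 or 5), the highest adjusted p being 0.109. All 9 left out an ARG or GLY heart, and fits without an NTG or AC5 heart leave the difference itself unchanged. The call was also lost under 7 other alternatives, with adjusted p from 0.0528 with array weights to 0.267 after quantile normalization. The differences from NTG of -0.21 in ARG, 0.20 in GLY and 0.03 in AC5 were not called.

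Because array scaling moves all members of a heart together, Rpl3l was also set against the median of the other members of the same heart, a measure chosen after its values were seen. This was -0.30 ± 0.27 in ARG (SD, n = 6), 0.11 ± 0.14 in GLY, -0.03 ± 0.12 in AC5 and 0.01 ± 0.12 in NTG. ARG differed from GLY by -0.40 (exact two-sided permutation p = 0.00649) and from NTG by -0.31 (exact p = 0.0108), both 0.0325 after Benjamini-Hochberg adjustment over the 6 comparisons. The smallest p the 6 against 6 design allows is 0.00216. ARG against AC5 was -0.26 (exact p = 0.0303, adjusted 0.0606), and the other 3 adjusted values were 0.127 to 0.481. Without ARG replicate 4 the differences were -0.30 from GLY (exact p = 0.0108) and -0.20 from NTG (exact p = 0.0216), before adjustment. These unadjusted values cannot be set beside the adjusted ones for all hearts, so they do not show that those calls hold without it.

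**Figure D5:**
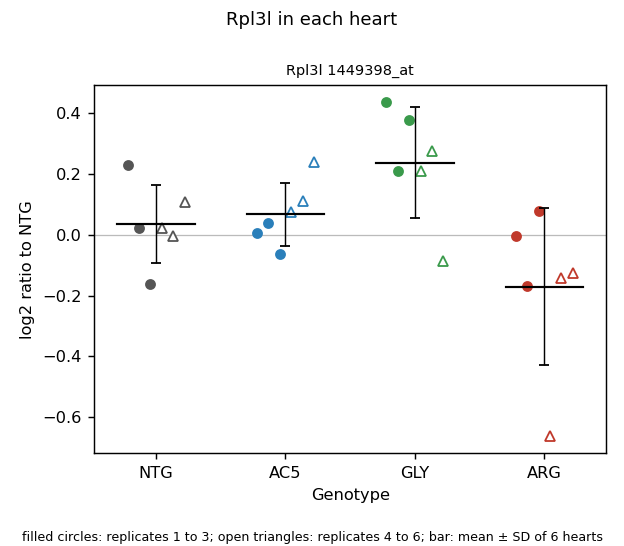
Log2 ratio to NTG of Rpl3l in each heart, by genotype. Filled circles are replicates 1 to 3, open triangles replicates 4 to 6, and bars the mean ± SD of 6 hearts. ARG hearts lie between -0.66 and 0.08 and GLY hearts between -0.09 and 0.44, with ARG replicate 4 the lowest of all.

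The members' median SD among hearts of 1 genotype was 0.129, against 0.173 over all probe sets. By genotype it was 0.166 in GLY, 0.0967 in ARG, 0.0916 in AC5 and 0.0845 in NTG, so that it was largest among GLY hearts. Over all probe sets the median SD was also largest in GLY, at 0.192, beside 0.175 in ARG, 0.143 in AC5 and 0.130 in NTG.

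Against NTG, cell type markers rose as calls in ARG alone. Over all probe sets, 9.67% were called against NTG in ARG, 5.08% in GLY and 0.142% in AC5. In these whole-heart samples, a change in the share of a cell type and a change of RNA per cell cannot be told apart. Of 13 macrophage markers, 10 rose in ARG (median 0.78; the median of the list was 0.30 to 1.16 in ARG hearts and -0.10 to 0.07 in NTG hearts), and of 10 fibroblast markers 6 rose and 1 fell (0.06 to 0.97 in ARG hearts against -0.19 to 0.06). Of 8 endothelial markers 3 fell in ARG (-0.57 to -0.08 against -0.17 to 0.16), and of 10 cardiomyocyte markers 1 fell (-0.20 to -0.05 against -0.07 to 0.06). No marker of lymphocytes (7 measured), red blood cells (3) or smooth muscle (5) was called against NTG in any line, and no marker of any list was called in AC5. The median of the fibroblast list was nonetheless -0.39 to -0.26 in AC5 hearts, wholly below NTG. In GLY no marker rose and 1 macrophage and 1 endothelial marker fell, while the members' median difference there was 0.11. The part of these cells in the members' values was not tested.

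Other genes of the translation machinery were read from lists chosen by function, with 1 probe set per gene. The 76 mitochondrial ribosomal proteins, which build the separate ribosome inside mitochondria, had a median of -0.09 in ARG. There 1 rose and 10 fell, where 4.04% of all probe sets were called higher and 5.63% lower. In GLY 1 rose and 6 fell (1.55% of all higher, 3.53% lower), with a list median of 0.01, and -0.04 after quantile normalization. In AC5 none rose and 2 fell (list median -0.03). Mrps25 gave the largest fall of the list in each line. It fell by 1.31 on the log2 scale in ARG (SE 0.09, limma adjusted p = 1.2e-09), by 0.86 in GLY (adjusted p = 5.5e-06) and by 0.45 in AC5 (adjusted p = 0.0494). In GLY and in AC5, 1 of its 3 probe sets was called. The AC5 call was lost when single hearts were left out (highest limma adjusted p = 0.151). Mrps34 rose by 0.32 in ARG and 0.38 in GLY, calls that were lost after quantile normalization (limma adjusted p = 0.196 and 0.146). They were also lost when single hearts were left out (highest limma adjusted p = 0.0887 and 0.0698).

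Of 49 translation factors measured, 5 rose and 2 fell in ARG, 2 rose and 4 fell in GLY, and none was called in AC5. For this and the following lists, the shares of all probe sets called were 9.67%, 5.08% and 0.142%. Pabpc1, which binds the poly(A) tail of mRNAs, rose by 0.78 ± 0.17 in ARG, and Eif4e, which binds their cap, fell by 0.56 (SE 0.13). After quantile normalization the Pabpc1 call was lost (limma adjusted p = 0.0566) and the Eif4e call was kept (limma adjusted p = 0.000486). In GLY Eif2b5, a subunit of the exchange factor for eIF2, rose by 0.39, and Eif5, which helps select the start codon, fell by 0.86 (SE 0.25). Eif2b5 was called on 1 of its 2 probe sets and Eif5 on 2 of 5. Both calls were lost after quantile normalization (limma adjusted p = 0.153 and 0.22). They were also lost when single hearts were left out (highest limma adjusted p = 0.13 and 0.134). The Eif5 difference was -1.47 in the first replicate set and -0.25 in the second. Of 52 genes of ribosome assembly and RNA polymerase I, 1 rose (Wdr75, 0.34) and 2 fell in ARG (largest Polr1e, -0.42), and 4 fell in GLY (largest Ebna1bp2, -0.43). Wdr75 was called on 1 of 2 probe sets and Ebna1bp2 on 1 of 3. Both calls were lost after quantile normalization (limma adjusted p = 0.181 and 0.224) and when single hearts were left out (highest 0.0908 and 0.0928). Of 22 genes of mTOR and S6 kinase signalling, 2 fell in ARG, led by the mTOR inhibitor Ddit4 (-0.90 ± 0.18, limma adjusted p = 0.00142), and 1 in GLY, the lysosomal GTPase Rragc (-0.30 ± 0.08). The Rragc call was lost after quantile normalization (limma adjusted p = 0.0956) and when single hearts were left out (highest 0.074). None of the 4 measured relatives of the stalk and fusion proteins was called against NTG in any line.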

How the data were processed

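The deposited table holds 1 column per heart of linear ratios to the non-transgenic level; the submitters' processing notes name RMA with no version, and the division by the control level was read from the values. The ratio values deposited by the authors were turned into log2 here and otherwise used as given. The 64 control probe sets were left out of 45101. Gene symbols came from the platform annotation given with the table: 34945 probe sets had 1 symbol, 932 several and 9160 none.

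One mean per genotype was fitted over all 24 arrays with limma 3.58.1 in R 4.3.3, with Benjamini-Hochberg adjustment over 45037 probe sets within each of 6 comparisons. The fit was tested on simulated data. Errors after ± are SE for differences and SD for hearts. With 6 arrays per genotype, the number of arrays limits the precision, and the depth of an array is not defined. Named were, per comparison, up to 8 called members with the largest rise and 8 with the largest fall. Rpl3l, Rplp0, Rplp2, Rpsa, Rps6, Rps27, Rps27l, Rpl39, Rpl39l, Rps4x and Rpl13a were named whatever their values. So were Adcy5 and Myh6, to check the labels. Also named were the 3 members with the largest SD and the called gene of each list with the largest change in each direction. Additions are marked in the text. The members, the gene lists and the replicate sets 1 to 3 and 4 to 6 were chosen with earlier results of these data known. Correlations of same-numbered hearts ran from -0.29 to 0.49. In GLY and ARG, and in AC5 and ARG, 5 of 6 were above 0.1, but in no pair of genotypes were all 6. Each heart of the first genotype was matched in each of the 6 pairs of genotypes, which gave 36 matches. In 5 of these the best match was the same number, so that numbers were not treated as pairs. A planned comparison of Rpl3 with Rpl3l was not made because each Rpl3 probe set carried several symbols. Alternatives covered scaling, weights, samples in the fit, probe set choice and each heart left out.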

Additional observations from a re-analysis of the deposited data

Results flagged for a closer look

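In 7 of 132 groups of 6 hearts looked at over the named members, 1 heart lay far from the other 5, where chance gives about 1 in 20. In NTG this was replicate 5 for Rpl13a 1433928_a_at, at -0.18 with the others from 0.04 to 0.17. In AC5 it was replicate 4 for Rplp0, at 0.029 with the others from 0.13 to 0.17. In ARG, replicate 4 was at -0.66 for Rpl3l (others -0.17 to 0.08) and replicate 5 at -0.32 for Rps27 (others -0.11 to 0.01). ARG replicate 6 was at -0.64 for Rps24 1455195_at (others -1.0 to -0.90). ARG replicate 1 was at 0.10 for Rps20 1456436_x_at (others 0.28 to 0.38) and at 0.15 for Rps4l (others 0.47 to 0.61).

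Transgenic lines differed from each other on a few members by limma's test of the difference itself. Rpl3l stood lower in ARG than in GLY by a difference of -0.41. Rps27l stood higher in ARG than in AC5, by 0.38 on 1423254_x_at, 0.37 on 1435429_x_at and 0.42 on 1450925_a_at. Rpl22 1448398_s_at stood lower in ARG than in AC5, by a difference of -0.42.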

How the results depend on the processing

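The count of called members in ARG against NTG (11) became 4 of 46 with 1 probe set per gene, where 12.04% of all tested were called. It was 5 without _x_at and _s_at probe sets (9.04%) and 6 after quantile normalization (5.33%). With 1 weight per genotype it was 17 (11.5%), and in a fit of the compared genotypes alone 19 (11.2%). With array weights it was 23 (13%). It was 27 (13.2%) without the 3 arrays of weight under 0.5 (GLY replicates 1 and 3, ARG replicate 1), which were chosen after seeing the data. It was 5 in replicates 1 to 3 (2.89% of all probe sets called) and 4 in replicates 4 to 6 (5.59%). In GLY against NTG the count (13) became 6 with 1 probe set per gene (5.90%) and 6 without _x_at and _s_at probe sets (4.92%). It was 8 in a fit of the compared genotypes alone (2.77%) and 8 without the arrays of low weight (2.91%). After quantile normalization it was 3 (1.41%), and within replicates 4 to 6 it was 0 (0.16%). Leaving out 1 heart at a time gave 10 (3.42%, without GLY replicate 1) to 23 (8.79%, without GLY replicate 6), and 20 without GLY replicate 4 (4.95%). The median in GLY was 0.17 in replicates 1 to 3 and 0.049 in replicates 4 to 6. In AC5 against NTG, 1 member was called with 1 weight per genotype (0.959%) and 2 with array weights (1.17%). In ARG against GLY the Rpl3l call was lost, and 0 members were called, with 1 weight per genotype (0.611%), array weights (1.45%) and the compared genotypes alone (0.211%). The same held after quantile normalization (0.129%) and in replicates 4 to 6 (0.426%). The Rpl3l call was also lost in replicates 1 to 3 (0.404%), where Rps3 1455600_at was called instead (-0.68, limma adjusted p = 0.0278). Without the arrays of low weight (1.53%) it was lost too, and Rps4l was called (0.71, limma adjusted p = 0.0217). There single hearts left out gave 0 to 2 (0.848% to 3.95%). The median there was -0.10 in replicates 1 to 3 and 0.072 in replicates 4 to 6. In ARG against AC5 the count (4) became 1 with 1 probe set per gene (7.04%) and 1 without _x_at and _s_at probe sets (4.58%). Within replicates 4 to 6 it was also 1 (3.04%), there Rps4l (0.79, limma adjusted p = 0.0163) and none of the 4. It was 2 with the trend and robust options (4.38%) and with the compared genotypes alone (4.92%). After quantile normalization (1.97%) and within replicates 1 to 3 (0.542%) it was 0. Over single hearts left out it was 2 to 4 (3.53% to 5.59%). The GLY against AC5 median (0.04) was 0.10 within replicates 1 to 3, -0.0097 within replicates 4 to 6 and -0.0043 after quantile normalization. The ARG against AC5 median (0.03) was -0.016 after quantile normalization and -0.00098 within replicates 1 to 3. With the replicate block the counts were 11, 13, 0, 1, 4 and 0, as without it (10.1%, 5.72%, 0.158%, 1.63%, 5.09% and 0.715%). The medians of the members kept their sign against NTG under all alternatives run. The replicate sets hold fewer hearts and the probe set choices fewer probe sets; otherwise the cause was not tested.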
